A study of Arabidopsis thaliana with 30 samples.

Results

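The response of mbs1-1 seedlings of Arabidopsis thaliana to 3 h of high light was measured on 6 of the 30 ATH1 arrays of the series. These are the 3 arrays of mbs1-1 seedlings at 3 h of high light and the 3 arrays of mbs1-1 seedlings at 0 h, and all 22746 probe sets that are not array controls were tested. The mbs1-1 line carries a mutant allele of MBS1, which encodes a small protein with a zinc finger, in the Col-0 background. High light was 1000 µE m-2 s-1. All seedlings were 12 days old, had been kept for 7 days in continuous light of 10 µE m-2 s-1 on agar with 1% sucrose, and were harvested whole without roots. The high light followed a dark period of 3 h, and whether the 0 h plants were taken before or after that darkness is not given in the sources used here. A difference between 3 h and 0 h therefore holds the effect of the light, of any darkness between the harvests and of the time that passed, which cannot be told apart. Each group has 3 biological replicates, and how many seedlings entered a replicate is not given in the sources used here. Further lines were set beside mbs1-1, each with 3 arrays at 3 h and 3 at 0 h: RNAi-MBS2/mbs1-1, in which MBS2 is silenced by RNA interference in the mbs1-1 mutant, 35S:MBS1, in which the constitutive 35S promoter drives MBS1, the flu mutant, and wild type Col-0. The labels do not say whether a transgenic line stands for 1 transformant or several.

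Light beyond what photosynthesis can use excites chlorophyll for longer, and the excited pigment passes energy to oxygen, which gives singlet oxygen in the chloroplast. MBS1 is known as a protein that takes part in signalling of singlet oxygen to the nucleus. Leaves moved from dim to strong light are known to make flavonoids and other sunscreens, to reduce the antenna of photosystem II, to fill their starch stores and to leave the starvation and shade programmes of dim light.

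Most measured genes listed for light signalling, sunscreens and cold were called higher at 3 h, and most listed for starvation, autophagy, shade and auxin were called lower. The lists were written with earlier results of these data known, so their split is a description and no test. Of the 557 genes in all lists 107 were matched to a probe set of their own. Of 22746 probe sets 10156, or 44.6%, were called different between 3 h and 0 h in limma's moderated test at a Benjamini-Hochberg adjusted p under 0.05. Of these 5886 were higher at 3 h, which is 25.9% of those tested, and 4270 were lower, which is 18.8%. A difference of at least 1 on the log2 scale was reached by 2111 called probe sets that were higher and 1492 that were lower. At least 4 on that scale was reached by 52 and 32. The arrays of the 2 times did not overlap for 11921 probe sets (52.4%), and 9703 of these were also called. With 44.6% called, a gene list in which about that share is called does not stand apart from the array as a whole.

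The first array at 3 h was brighter than the others. The median signal of the arrays was 7.09, 6.85 and 6.92 at 3 h and 6.85, 6.89 and 6.86 at 0 h, against 6.80 to 6.99 in the other 24 arrays. The median log2 difference over all probe sets was 0.10, and 58.0% of the calls were higher at 3 h. After each array was centred on its median, 50.3% of the calls were higher, and after quantile normalization 49.5%, with the median over all probe sets at -0.01. Without the first array at 3 h, 9026 probe sets were called, of which 51.9% were higher. That array's removal ended 1515 calls, 1258 of them higher and 257 lower, and 32 of the 1515 had a difference of at least 1. None of the calls that stayed changed direction. The actin control probe sets, whose 3′ signal minus 5′ signal is a sign of RNA quality, gave 6.17, 6.78 and 6.89 at 3 h and 6.53, 6.59 and 6.56 at 0 h, so the first array at 3 h was the lowest there and the other two were above all 0 h arrays. That of the GAPDH controls was 3.39, 3.39 and 3.51 at 3 h and 3.45, 3.60 and 3.71 at 0 h. The part of brightness and RNA quality in the small differences was not tested. For 89 of the 98 named genes that were called, with large and small differences among them, the call held in all 14 other settings. Most of these genes were named because they were called, so the count does not extend to other genes.

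**Figure D1:**
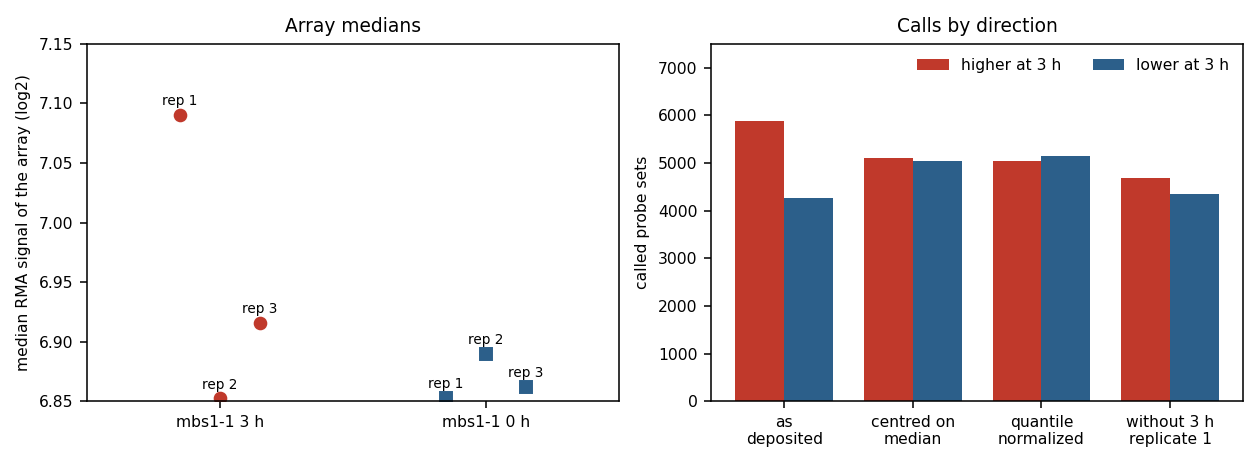
The left panel plots the median log2 RMA signal of each mbs1-1 array, and the right panel the number of probe sets called higher (red) or lower (blue) at 3 h under 4 treatments of the arrays. The first array at 3 h stands at 7.09, above the other 5, and the surplus of higher calls (5886 against 4270 as deposited) is 5104 against 5049 after centring on the median.

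The array annotation gives exactly 1 gene to 13513 of the 22810 probe sets, and only these are named here by gene. A further 4441 called probe sets have no single gene, among them 8 of the 12 highest and 5 of the 12 lowest over all probe sets, so the genes named are not the extremes of the array. MBS1 (AT3G02790), MBS2 (AT5G16470), FLU and BAP1 have no probe set of their own in that annotation. The line labels could therefore not be checked on the mutated gene. One unnamed probe set, chosen after its values were seen, was low in both lines with mbs1-1 and high in 35S:MBS1. Probe-258623_at had 4.84, 4.16 and 4.23 in mbs1-1 at 3 h, against 4.74, 4.48 and 4.09 in mbs1-1 at 0 h. In RNAi-MBS2/mbs1-1 it lay between 3.801 and 4.097 at 3 h and between 4.36 and 5.55 at 0 h. The 2 lines with mbs1-1 overlapped at 0 h but not at 3 h, where all arrays of RNAi-MBS2/mbs1-1 were lower. In wild type this probe set lay between 8.74 and 8.76 at 3 h and between 8.98 and 9.16 at 0 h. It lay between 13.32 and 13.98 over the 6 arrays of 35S:MBS1.

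RCA, the Rubisco activase of green tissue, was at 12.86, 12.72 and 12.66 at 3 h and at 12.79, 12.85 and 12.86 at 0 h. Its groups overlapped and it was not called (adjusted p = 0.533). EXPA7, an expansin of root hairs, lay between 2.85 and 3.32 on all 6 arrays, near the low end of the scale, and the root peroxidase gene AT5G66390 was not called either (adjusted p = 0.86). FMA, which encodes the guard cell factor FAMA, fell by 0.90 ± 0.16 on the log2 scale at 3 h (adjusted p = 3.74e-05). In seedlings harvested whole without roots, fewer cells of a type and less RNA per cell cannot be told apart. No gene of the seed marker list has a probe set of its own. CLV3, of the shoot meristem, was not called (adjusted p = 0.121).

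Light signalling genes rose. All 4 measured members of the light signalling and clock list, which names 45 genes, were called higher, beside 25.9% over the array. Their median log2 difference was 4.39, against 0.10 for all probe sets. AT3G52740, known as BIC1, an inhibitor of the cryptochrome blue light receptors, had signals of 11.17, 11.06 and 10.69 at 3 h, against 6.20, 6.02 and 6.12 at 0 h. Its log2 difference was 4.86 ± 0.15 (SE, n = 3 arrays at each time, as for all differences below; adjusted p = 6.16e-19). The second inhibitor of this kind, AT3G44450 or BIC2, had 11.44, 11.39 and 10.80 at 3 h, against 6.41, 6.12 and 6.34 at 0 h, a difference of 4.92. For both genes every array at 3 h lay more than 4 log2 units above every array at 0 h. GI (GIGANTEA), a component of the clock and of the photoperiod pathway, was at 9.67, 9.81 and 9.99 at 3 h and at 6.22, 5.55 and 5.94 at 0 h, a rise of 3.92 ± 0.17. HYH, a bZIP factor close to the light regulator HY5, rose by 1.53 ± 0.14. FHL, which helps phytochrome A to enter the nucleus, went the other way. Its signal was 3.91, 3.93 and 4.04 at 3 h, against 7.72, 7.60 and 7.47 at 0 h, and it fell by 3.64 on the log2 scale.

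Sunscreen genes rose as well. All 8 measured members of the 29 genes listed for flavonoids, anthocyanins and sinapate esters were called higher, beside 25.9% over the array. Their median log2 difference was 2.91. After centring, and also without the first array at 3 h, 5 of the 8 were called. UGT84A1, which attaches glucose to sinapate and related acids, had signals of 11.01, 10.92 and 10.91 at 3 h, against 5.47, 5.59 and 5.40 at 0 h. That is a log2 difference of 5.46 ± 0.14, or 44.0-fold (adjusted p = 2.5e-20). AT1G06000, the flavonol rhamnosyltransferase UGT89C1, had 10.98, 10.77 and 10.89 at 3 h, against 5.61, 5.58 and 5.57 at 0 h, and a difference of 5.29 ± 0.31. CHIL, a chalcone isomerase-like protein that raises flavonoid output, had 11.71, 11.46 and 11.36 at 3 h, against 7.27, 7.12 and 7.33 at 0 h. It rose by 4.27 ± 0.21. UGT78D2, which puts glucose on flavonols and anthocyanidins, had 11.59, 11.52 and 11.54 at 3 h, against 7.30, 7.33 and 7.29 at 0 h. Its arrays at each time lay within 0.1 of each other, and the difference was 4.24 ± 0.11. The flavonol rhamnosyltransferase UGT78D1 was at 12.47, 13.10 and 13.40 at 3 h and at 11.37, 11.33 and 11.54 at 0 h, a rise of 1.58 ± 0.19.

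The anthocyanin branch was dim and changed less. DFR, which makes the precursors of anthocyanins, was at 5.01, 4.67 and 4.79 at 3 h and at 3.79, 3.78 and 3.95 at 0 h. The difference was 0.99 ± 0.38 (adjusted p = 0.0353). It was 0.90 after centring (adjusted p = 0.0519) and 0.89 without the first array at 3 h (0.107), and the call was also lost without each array at 0 h (0.0565 to 0.0808) and without the third at 3 h (0.0634). UF3GT, which adds xylose to anthocyanins, had 5.71, 4.63 and 4.64 at 3 h, against 4.41, 4.67 and 4.47 at 0 h, so that its groups overlapped and the first array at 3 h stood alone. AT4G14090, an anthocyanin glucosyltransferase, differed by 0.51 ± 0.20 (adjusted p = 0.0401). None of these 3 genes was called after centring or without the first array at 3 h.

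**Figure D2:**
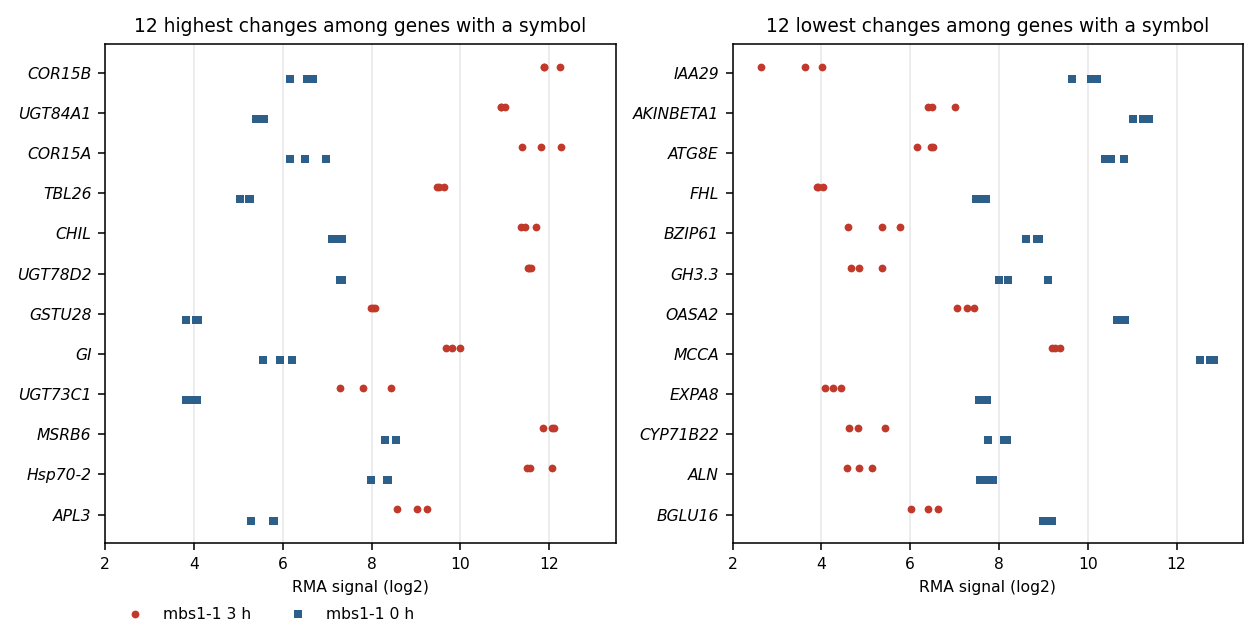
Log2 RMA signal on each mbs1-1 array at 3 h (red circles) and 0 h (blue squares) for the 12 genes with the highest and the 12 with the lowest log2 difference among called genes that carry a symbol and whose times do not overlap. Non-overlap is part of how the genes were chosen, and the spread of the 3 circles or squares is small beside the distance between times, as for UGT84A1 at 10.91 to 11.01 against 5.40 to 5.59.

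The UDP-glycosyltransferases, the family that attaches sugars to small molecules, moved in both directions. Of 47 measured members 15 were called higher and 11 lower, 55.3% in all beside 44.6% over the array, with a median log2 difference of 0.20. Among glutathione transferase and detoxification genes 1 of 5 measured was called higher, GSTU28, and 2 lower, 60% in all beside 44.6% over the array. The lower ones, UGT73B4 and UGT73B5, fell by 1.38 and 1.102 on the log2 scale. UGT73C1, known to act on cytokinins and foreign compounds, had 8.45, 7.80 and 7.29 at 3 h, against 3.81, 3.89 and 4.08 at 0 h, and rose by 3.92 ± 0.30. UGT76E11 rose by 3.05 ± 0.21 and UGT71B1 by 2.13 ± 0.12. UGT78D3, a flavonol arabinosyltransferase, rose by 1.76 ± 0.16. At the other end were UGT72E1, which glucosylates phenylpropanoid aldehydes and fell by 1.85 on the log2 scale, UGT85A4, which fell by 1.77, and UGT88A1, which fell by 1.67. Members with close sequences can share signal on such probe sets, so neighbours in the family are not fully separate measurements.

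**Figure D3:**
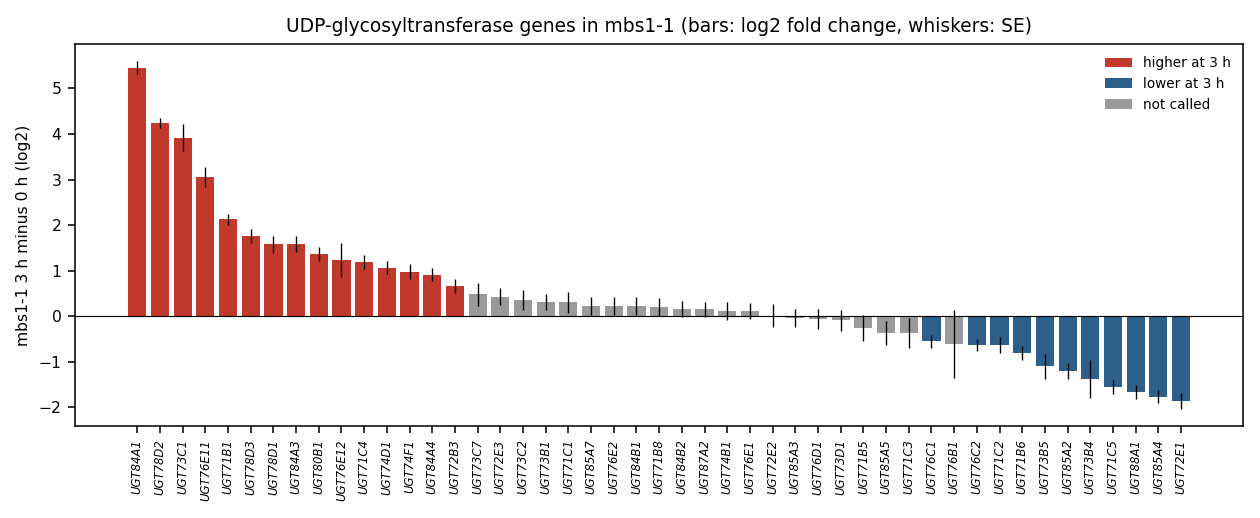
Log2 difference between mbs1-1 at 3 h and 0 h (bars) with its standard error (whiskers) for the 47 measured UDP-glycosyltransferase genes, in descending order. The 15 called higher (red) run up to 5.46 for UGT84A1, the 11 called lower (blue) down to -1.85 for UGT72E1, and 21 were not called (grey).

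Cold-regulated genes were among the highest in the response. Of the 22 genes listed for cold, dehydrins and late embryogenesis 5 were measured. All were called, 4 higher and 1 lower, beside 44.6% called over the array. COR15B, a chloroplast protein that protects membranes from freezing, had 11.87, 12.24 and 11.87 at 3 h, against 6.67, 6.17 and 6.55 at 0 h, a rise of 5.53 ± 0.34. Its close copy COR15A had 11.82, 12.26 and 11.40 at 3 h, against 6.98, 6.16 and 6.51 at 0 h, a rise of 5.28 ± 0.33. The pair is near in sequence, and each may take signal from the other. The dehydrin LTI30 was at 7.52, 7.63 and 7.45 at 3 h and at 3.58, 4.54 and 4.96 at 0 h, a rise of 3.17 ± 0.39, with more spread at 0 h than at 3 h. COR47, another dehydrin, rose by 0.63 ± 0.20 (adjusted p = 0.0109), a call that was lost without the second array at 0 h (0.0554). M17, a late embryogenesis gene, fell by 2.51 on the log2 scale.

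Chaperone genes split between a few that rose and small heat shock genes with wide spread. AT1G71000, which encodes a DnaJ-type co-chaperone, had 9.73, 9.65 and 10.03 at 3 h, against 3.86, 4.05 and 3.68 at 0 h. Its log2 difference of 5.93 ± 0.34, or 61.1-fold, was the third highest among the named genes. Hsp70-2, a cytosolic chaperone of the HSP70 family whose copies are close in sequence, had 11.57, 11.49 and 12.05 at 3 h, against 8.36, 7.98 and 8.36 at 0 h, a rise of 3.47 ± 0.18. Of the heat shock list 4 of 21 genes were measured and 2 were called, both higher, which is 50% beside 44.6% over the array. The second was AT5G48570, the immunophilin ROF2, with a rise of 1.44 ± 0.45 (adjusted p = 0.0106), lost without the third array at 0 h (0.0564). ATHSP22.0 had 4.12, 4.17 and 4.06 at 3 h, against 3.83, 5.63 and 3.93 at 0 h, where the second array stood apart. The same array was the highest at 0 h for the small heat shock gene AT1G53540, at 10.39 beside 8.74 and 8.46, with 9.88, 10.35 and 9.53 at 3 h. Neither of these was called. In the endoplasmic reticulum list 3 of 4 measured genes were called higher, 75% beside 44.6% over the array. After centring, and also without the first array at 3 h, 2 were called higher and 1 lower. The co-chaperone ATERDJ3B rose by 1.13 ± 0.12, the calreticulin CRT1b by 0.60 ± 0.12 and the stress factor BZIP60 by 0.53 ± 0.20. BZIP60 was not called after centring (0.0884), where BZIP28, at -0.30 ± 0.15 as deposited, was called lower.

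Genes of oxidative stress gave a mixed picture. In the list of singlet oxygen and rapid stress genes 5 of 17 were measured and 3 were called higher, 60% beside 44.6% over the array. AT5G64870, which encodes a flotillin-like membrane protein, had 8.64, 8.46 and 8.08 at 3 h, against 7.08, 6.43 and 6.52 at 0 h, and rose by 1.72 ± 0.26. The zinc finger repressor STZ was at 8.86, 9.17 and 9.36 at 3 h and at 7.45, 7.08 and 8.52 at 0 h. It rose by 1.45 ± 0.38, with the third array at 0 h nearest to the 3 h values. The calmodulin-like CML37 rose by 1.30 ± 0.26. AT3G28580, an AAA-type ATPase gene known as a marker of singlet oxygen in the flu mutant, had 4.71, 4.44 and 4.18 at 3 h, against 4.79, 5.52 and 5.74 at 0 h. All 3 h values lay below those of 0 h, but the log2 difference of -0.90 ± 0.46 was not called (adjusted p = 0.118). CML38 was not called either, at -0.21 ± 0.31.

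Antioxidant enzymes differed by compartment and isoform. SAPX, the ascorbate peroxidase of the chloroplast stroma, had 10.75, 10.89 and 11.02 at 3 h, against 9.84, 9.81 and 9.93 at 0 h, a rise of 1.03 ± 0.23. TAPX, the form bound to the thylakoid membrane, had 9.96, 9.56 and 9.47 at 3 h, against 10.55, 10.43 and 10.37 at 0 h, and fell by 0.79 on the log2 scale. GR1, a glutathione reductase, rose by 0.69 ± 0.11. Other antioxidant genes of the list were not measured by a probe set of their own. MSRB6, a methionine sulfoxide reductase that repairs oxidised proteins, had 12.11, 12.06 and 11.85 at 3 h, against 8.54, 8.29 and 8.54 at 0 h, and rose by 3.55 ± 0.19. Alternative respiration genes of the mitochondrion were called higher in 3 of 5 measured cases, 60% beside 44.6% called over the array. The external NADH dehydrogenase NDB2 rose by 1.70 ± 0.33, NDC1 by 0.70 ± 0.14, and AT2G21640, a marker of mitochondrial stress, by 1.02 ± 0.25, while NDB3 and NDB4 were not called.

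Antenna genes of the same subunit moved apart. LHCB4.3 had 10.56, 10.47 and 10.40 at 3 h, against 7.66, 7.21 and 7.19 at 0 h, and rose by 3.12 ± 0.17. LHCB4.2 had 11.89, 11.52 and 11.55 at 3 h, against 13.82, 13.69 and 13.76 at 0 h, and fell by 2.104 on the log2 scale. LHCB4.1 had 13.35, 13.36 and 13.20 at 3 h, against 13.94, 13.85 and 13.91 at 0 h, and fell by 0.60. All of them encode CP29, a minor antenna protein of photosystem II, and in none did the times overlap. LIL3:1 and LIL3:2, light-harvesting-like proteins that anchor enzymes of chlorophyll synthesis, split in the same manner, with +0.49 ± 0.13 and -0.44 ± 0.15. The call of LIL3:2 was lost without the second array at 3 h (adjusted p = 0.0591), without the third at 3 h (0.112) and without the third at 0 h (0.0608).

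Genes of chlorophyll synthesis fell or were not called. Of 30 listed 9 were measured, and 5 were called lower and none higher, 55.6% beside 44.6% for all probe sets, and 18.8% for lower calls. After centring, 6 were called lower. PORB, a light-dependent protochlorophyllide oxidoreductase, had 9.70, 9.94 and 9.79 at 3 h, against 11.68, 11.20 and 11.46 at 0 h, and fell by 1.63 on the log2 scale. CHLM, a methyltransferase of the magnesium branch, had 11.45, 11.24 and 10.85 at 3 h, against 12.24, 12.09 and 12.02 at 0 h, and fell by 0.94. Smaller falls were measured in HEMB1 (0.54), HEME2 (0.55) and HEME1 (0.45), enzymes of the shared early steps, counted as falls on the log2 scale. HEME2 was not called without the third array at 3 h (0.0653). GSA1, HEMA2 and CHLI2 were not called. Of the photosystem genes PSAE-1 fell by 0.57 and PSAN by 0.45, while PSBW, PSBY and ATPC1 were not called. In the Calvin cycle, SBPASE rose by 0.41 ± 0.11 and PRK, RCA and CaS were not called.

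Known darkness and low-energy genes were called lower at 3 h in all 6 measured cases of 23 listed, beside 18.8% over the array. Their median log2 difference was -2.35. AKINBETA1, a regulatory subunit of the energy sensor kinase SnRK1, had 7.00, 6.49 and 6.41 at 3 h, against 11.37, 11.24 and 11.01 at 0 h, and fell by 4.57 on the log2 scale, a 23.8-fold difference (adjusted p = 6.78e-17). AT3G15450, a gene of that list induced by starvation, had 4.56, 4.06 and 4.72 at 3 h, against 10.98, 10.72 and 10.72 at 0 h, and fell by 6.36. MCCA and MCCB encode the subunits of methylcrotonyl-CoA carboxylase, which breaks down leucine. MCCA was at 9.38, 9.20 and 9.25 at 3 h and at 12.84, 12.76 and 12.53 at 0 h, a fall of 3.43, and MCCB fell by 1.26. EXO fell by 0.93 and ATL8 by 0.66, the second of them not called without the first array at 0 h (0.0738). ALN, an allantoinase that recovers nitrogen from purines, fell by 2.85.

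Autophagy genes fell with them. Of the 16 genes of the autophagy list 10 were measured, with a median log2 difference of -1.06. All were called, 9 lower and 1 higher, beside 44.6% called over the array. The measured ones encode ATG8 proteins, which coat the autophagosome membrane, and the kinase ATG1A (AT3G61960). Other listed autophagy genes, such as ATG5 and ATG7, had no probe set of their own. ATG8E had 6.52, 6.15 and 6.47 at 3 h, against 10.82, 10.39 and 10.53 at 0 h, and fell by 4.201. ATG8F was at 11.08, 10.62 and 10.47 at 3 h and at 12.69, 12.63 and 12.49 at 0 h, a fall of 1.88. Falls of 1.51, 1.28 and 1.202 were measured for APG8A, APG8H and ATG8G. Here APG8H is AT3G15580, also known as ATG8I, and is not the gene ATG8H. ATG8C fell by 0.92, ATG8B by 0.79, ATG8H by 0.53 and AT3G61960 by 0.50. ATG8D alone of these rose, to 9.43, 9.17 and 9.18 at 3 h, against 8.70, 8.35 and 8.74 at 0 h, by 0.66 ± 0.15. The direction of each was the same after centring and without the first array at 3 h.

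Auxin and shade genes fell. Of 28 listed 5 were measured, and all were called, 4 lower and 1 higher, beside 44.6% called over the array. IAA29, an Aux/IAA repressor of the auxin response, had 4.01, 2.64 and 3.63 at 3 h, against 10.21, 9.65 and 10.08 at 0 h. The fall of 6.55 on the log2 scale was 93.8-fold (adjusted p = 5.91e-14), and the 3 h values lie near the low end of the scale, where differences are compressed. GH3.3, which conjugates auxin to amino acids, had 4.68, 4.84 and 5.37 at 3 h, against 8.01, 9.11 and 8.21 at 0 h, and fell by 3.48. WES1, a second enzyme of that kind, fell by 2.42 and the shade-induced factor HAT2 by 2.41. IAA30 was called higher by 0.51 ± 0.18, and was not called without the first array at 3 h (adjusted p = 0.193). Cell wall expansins went both ways. EXPA8 had 4.26, 4.43 and 4.08 at 3 h, against 7.72, 7.56 and 7.71 at 0 h, and fell by 3.40, while EXPB3, EXPA15 and EXPA4 rose by 1.23, 1.16 and 1.14. Over the whole expansin family 4 of 18 members were called higher and 5 lower, 50% in all beside 44.6% over the array.

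Starch, sulphur and transport genes varied too. APL3, a large subunit of the enzyme that makes ADP-glucose for starch, had 8.56, 9.03 and 9.26 at 3 h, against 5.79, 5.80 and 5.29 at 0 h, and rose by 3.33 ± 0.22. The branching enzyme SBE2.2 rose by 0.61 ± 0.13 and DPE1 was not called. OASA2, of the cysteine synthase family, had 7.45, 7.27 and 7.06 at 3 h, against 10.84, 10.66 and 10.71 at 0 h, and fell by 3.48 on the log2 scale. SIR and APS3 of sulphate assimilation were not called, nor were the measured jasmonate genes THI2.1 and PDF1.2 or the mitotic kinase AUR1. PDF1.2, a defensin, spread from 5.30 to 7.17 at 3 h and from 5.90 to 7.49 at 0 h. In the SWEET family of sugar transporters 5 of 14 were called higher and none lower, or 4 and 1 after centring, and 3 and none without the first array at 3 h. The share called as deposited was 35.7%, beside 44.6% over the array. SWEET13 was at 6.78, 6.22 and 7.16 at 3 h and at 4.02, 4.02 and 4.03 at 0 h, a rise of 2.70 ± 0.33, and SWEET2 rose by 1.203 ± 0.35. The families, unlike the lists, were formed from symbols after the annotation was seen.

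Genes named CRR or OTP, most of which encode pentatricopeptide proteins that edit or splice transcripts of chloroplasts and mitochondria, were called higher in 8 of 13 measured cases, with none lower and a median log2 difference of 0.99. OTP81 was at 8.29, 7.99 and 7.83 at 3 h and at 5.98, 6.13 and 5.89 at 0 h, a rise of 2.04 ± 0.21. CRR21 had 9.60, 9.47 and 9.36 at 3 h, against 7.64, 8.002 and 7.71 at 0 h, and rose by 1.69 ± 0.19. OTP84 rose by 1.32, and CRR42 and CRR41, which are known from the assembly of the chloroplast NADH dehydrogenase-like complex, by 1.34 and 1.22. The count of higher calls was 8 after centring and 7 without the first array at 3 h. The share called as deposited was 61.5%, beside 44.6% over the array.

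As deposited, several other families had members called in both directions, while ubiquitin-specific proteases had higher calls only. Beside 44.6% over the array, the shares called were 59.1% (trichome birefringence-like), 78.6% (bZIP), 34.8% (cytochromes P450) and 40% (beta-glucosidases). Shares of 50% and 58.3% were found for ubiquitin-specific proteases and ubiquitin-conjugating enzymes. Trichome birefringence-like proteins, which acetylate wall polymers, had 4 of 22 members higher and 9 lower. TBL26 stood out among them with 9.62, 9.51 and 9.47 at 3 h, against 5.26, 5.24 and 5.05 at 0 h, a rise of 4.36 ± 0.21. Of 14 bZIP factors 6 were called higher and 5 lower, or 4 and 6 after centring. BZIP61 was the lowest, with 4.59, 5.38 and 5.78 at 3 h, against 8.86, 8.61 and 8.90 at 0 h, and fell by 3.54. Ubiquitin-specific proteases were called higher in 6 of 12 cases, all under 1 on the log2 scale, or in 5 with 1 lower after centring and in 3 without the first array at 3 h. Ubiquitin-conjugating enzymes were higher in 2 and lower in 5 of 12. Of 23 cytochromes P450, oxidases of many small molecules, 4 were called higher and 4 lower, or 3 and 6 after centring and 2 and 5 without the first array at 3 h, and CYP71B22 fell by 3.06 on the log2 scale. Among 20 beta-glucosidases 4 rose and 4 fell, or 3 and 2 without the first array at 3 h, the lowest being BGLU16 with a fall of 2.75.

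**Figure D4:**
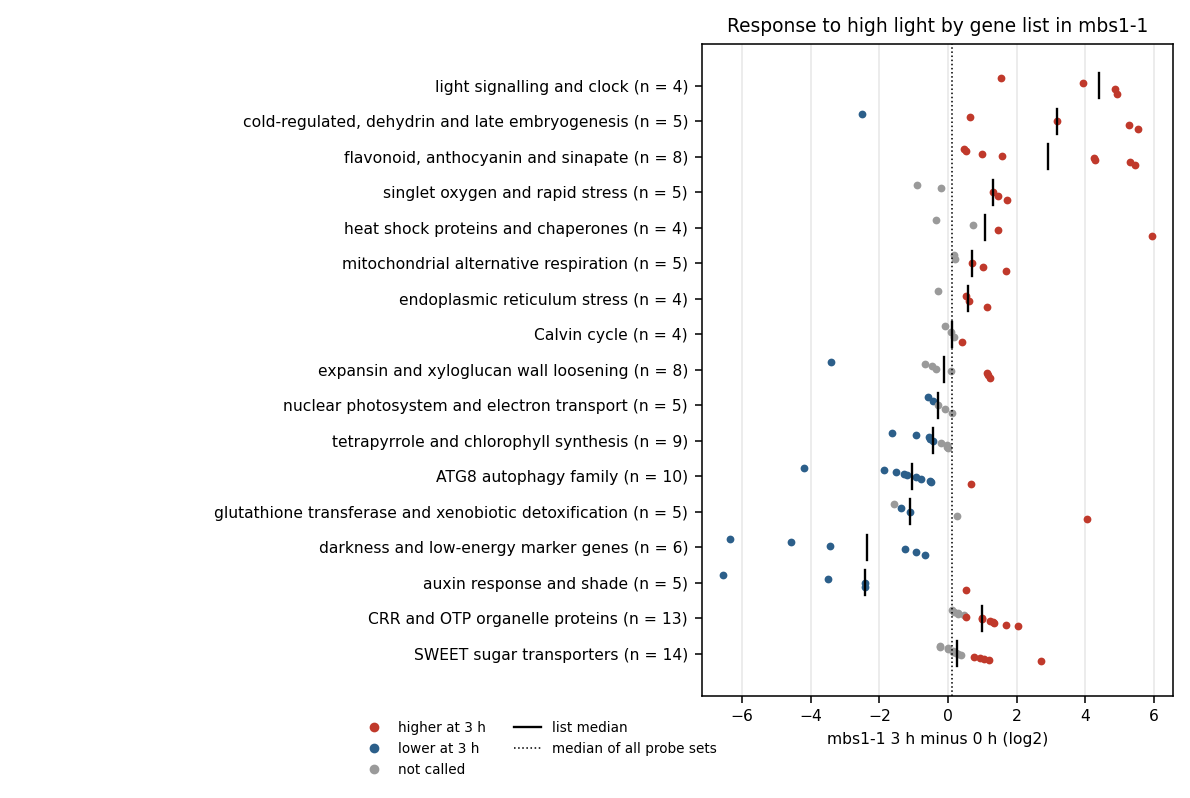
Log2 difference between mbs1-1 at 3 h and 0 h for each measured member of the gene lists with at least 4 members, and of 2 families at the bottom (red: called higher, blue: called lower, grey: not called). Black bars are list medians and the dotted line is the median of all probe sets, 0.10. The list medians run from 4.39 for light signalling and clock to -2.42 for auxin and shade.

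The highest and lowest named genes included several with no symbol. AT2G27420 had 10.99, 11.20 and 10.97 at 3 h, against 4.52, 4.66 and 4.12 at 0 h, a log2 difference of 6.62 ± 0.19, or 98.4-fold. AT2G23910 had 11.64, 11.07 and 11.12 at 3 h, against 4.62, 4.96 and 4.55 at 0 h, a difference of 6.57 ± 0.16. They are the highest of all named genes, and no array at 0 h came within 5 log2 units of those at 3 h. AT5G42760 rose by 5.64, AT5G53710 by 4.94 and AT4G28140 by 4.92. At the low end AT3G29970 had 3.91, 5.005 and 4.81 at 3 h, against 11.67, 11.90 and 11.21 at 0 h, and fell by 7.02 on the log2 scale. Its standard error of 1.39 comes from the spread pooled over the 10 groups, since the SD within mbs1-1 was 0.59 at 3 h and 0.36 at 0 h. AT4G27450 fell by 6.46, AT2G17850 by 6.44, AT5G62280 by 5.52 and AT1G19530 by 4.92. Falls between 4.69 and 4.75 were measured for AT3G19850, AT4G38820, AT4G10270 and AT5G48490. These 4 had 0 h signals between 8.64 and 12.63.

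The response of mbs1-1 was close to that of wild type. Across the 22746 probe sets the log2 differences of mbs1-1 and wild type correlated with r = 0.915, a description over features that share the arrays of each line. The corresponding r was 0.917 with RNAi-MBS2/mbs1-1, 0.904 with 35S:MBS1 and 0.782 with flu. Of the mbs1-1 calls 8041 were called in the same direction in wild type, 79.2% of the mbs1-1 calls and 77.7% of the wild type calls, and 14 were called in opposite directions. Of the 3603 mbs1-1 calls of at least 1 on the log2 scale 3422 were also called in wild type.

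The 2 responses were then compared in the fit itself. The mbs1-1 response minus the wild type response was called for 12 of 22746 probe sets (0.0528%), all higher in mbs1-1, and 2920 had an unadjusted p under 0.05. The direction of such calls was mixed in some settings, with 13 higher and 9 lower without the third wild type array at 3 h, and 20 higher and 4 lower without the third mbs1-1 array at 3 h. The median of this difference over all probe sets was 0.14. Beside the bright first array of mbs1-1 at 3 h, the first array of wild type at 0 h had a median of 6.99, against 6.85 and 6.85 in the other wild type arrays at 0 h. After centring, 4 of the 12 were called, and without these 2 arrays, a setting chosen after seeing the data, 1 was. Leaving out only the second wild type array at 3 h, with a median of 6.92, also left 1 call. The count thus moved with single arrays. Whether the brightness of arrays or a smaller fit lowered it was not tested. GSTU28, a tau class glutathione transferase, had the largest difference. It was at 8.07, 7.99 and 8.04 in mbs1-1 at 3 h and at 3.83, 4.04 and 4.08 in mbs1-1 at 0 h. In wild type it was at 5.98, 5.96 and 7.16 at 3 h and at 4.41, 4.45 and 4.77 at 0 h. The response was 4.05 ± 0.24 in mbs1-1 and 1.82 ± 0.24 in wild type, and the difference 2.23 ± 0.35 (adjusted p = 0.0102, after centring 0.0292, and without the 2 brighter arrays, where it was 2.28, 0.0659).

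For GSTU28 all mbs1-1 arrays lay above all wild type arrays at 3 h and below them at 0 h, and neither time was tested alone. UGT84A1 and UGT78D2, sunscreen genes described above, rose by 5.46 and 4.24 in mbs1-1, against 4.35 and 3.36 in wild type. Their differences of 1.11 ± 0.20 and 0.88 ± 0.15 were called as deposited (adjusted p = 0.0264 and 0.0262) and were 1.03 and 0.80 after centring, where they were not called (0.0516 and 0.0618). AT4G16400 rose by 1.58 in mbs1-1 and had a difference of 0.19, not called, in wild type. The difference of 1.39 ± 0.24 was called as deposited (adjusted p = 0.0262) and after centring (0.0292), and was 1.17, not called, without the 2 brighter arrays (0.327). AT4G31875 rose by 3.75 in mbs1-1 and 1.96 in wild type. UGT85A4 fell in both, by 1.77 in mbs1-1 and 2.81 in wild type. The differences of these genes were called as deposited (adjusted p = 0.0287 and 0.0432) and not after centring (0.0618 and 0.091). AT4G25580, a dim probe set at 4.84, 4.16 and 3.98 in mbs1-1 at 3 h and at 3.78, 3.92 and 3.79 in mbs1-1 at 0 h, was called higher by 0.50 in mbs1-1 and lower by 0.88 in wild type. Its mbs1-1 call was lost without the first array at 3 h (0.305). The difference between these responses was called as deposited (adjusted p = 0.0418) and not after centring (0.0618).

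**Figure D5:**
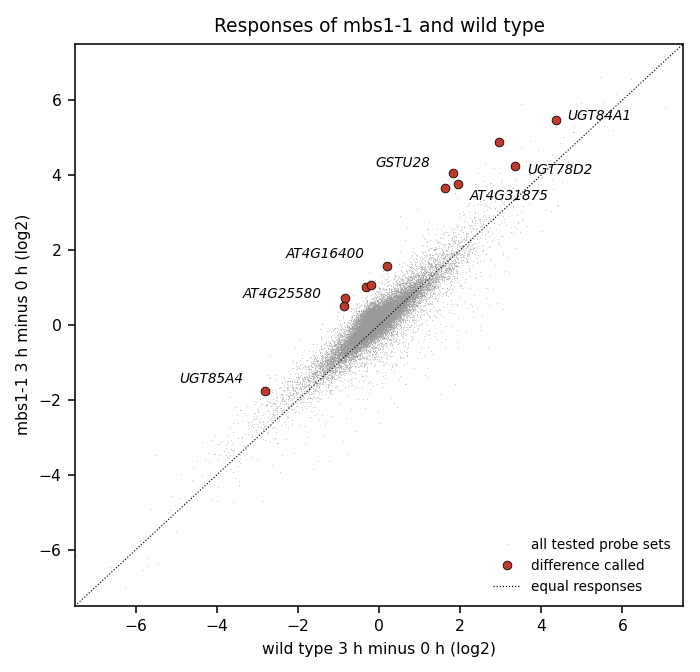
Log2 difference between 3 h and 0 h in mbs1-1 (vertical axis) and in wild type (horizontal axis) for the 22746 tested probe sets (grey), with the 12 whose difference of responses was called in red. The dotted line marks equal responses, and all 12 lie above it, with GSTU28 at 4.05 in mbs1-1 against 1.82 in wild type.

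RNAi-MBS2/mbs1-1 and 35S:MBS1 were compared with mbs1-1 in the same manner, and the difference to flu was not tested. In RNAi-MBS2/mbs1-1, 35S:MBS1 and flu, GSTU28 rose by 3.17, 2.84 and 3.52, between its responses in wild type and mbs1-1. Likewise between were UGT84A1 (5.45, 4.65 and 5.40), UGT78D2 (3.95, 3.79 and 3.67) and AT4G31875 (3.35, 2.81 and 3.46). AT4G16400 (0.48, 0.34 and 0.56), UGT85A4 (-2.56, -2.54 and -3.07) and AT4G25580 (-0.64, -0.99 and -0.69) lay nearer to wild type. Whether wild type or mbs1-1 was the line apart was not tested. The mbs1-1 response minus the RNAi-MBS2/mbs1-1 response was called by limma for 0 of 22746 probe sets (0%), while 3094 had an unadjusted p under 0.05. Minus the 35S:MBS1 response, 3 were called (0.0132%), all higher in mbs1-1, and 3551 had an unadjusted p under 0.05. In a fit of the 12 compared arrays alone, 101 were called, 57 higher and 44 lower. UGT76C2, which glucosylates cytokinins, had 7.89, 7.87 and 7.91 in mbs1-1 at 3 h, against 8.46, 8.62 and 8.49 in mbs1-1 at 0 h. In 35S:MBS1 it had 6.77, 6.75 and 6.64 at 3 h, against 8.87, 8.61 and 8.60 at 0 h. It fell by 0.63 in mbs1-1 and by 1.97 in 35S:MBS1, and the difference was 1.34 ± 0.18 (adjusted p = 0.00118). The same sort of comparison for AT4G25580 gave 1.49 ± 0.26 (adjusted p = 0.0457), a call lost in 10 of 18 other settings, where the difference ran from 1.23 to 1.67 over all 18 and the adjusted p reached 0.161.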

How the data were processed

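The deposited values are log2 signals; the submitters' processing notes name RMA and affy without a version. Whether the authors normalized all 30 arrays together is not given in the sources used here. RNA was labelled with a NuGEN Encore module, per the labels' protocols. Of 22810 probe sets 64 were controls and were left out. A probe set was named where the annotation gives it exactly 1 gene, and 146 genes had more than 1 probe set.

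A limma (3.58.1, R 4.3.3) fit of 10 group means over 30 arrays had 20 residual degrees of freedom. Differences of responses were contrasts of the same fit, and p-values were adjusted by Benjamini-Hochberg over 22746 probe sets. Replicates carry numbers, but same-numbered mbs1-1 arrays did not deviate together (r = 0.03, -0.02 and 0.01), so their comparison was not paired. In 35S:MBS1 same-numbered arrays gave r = 0.37, 0.11 and 0.14, and arrays with unlike numbers gave -0.28 to 0.17, so only the first stood above these. With the replicate block 4 probe sets were called in the difference to that line, against 3. Alternatives were other scalings, variance priors, filters and arrays left out. The scripts were checked on simulated data. Array number limits precision, and no detection calls were used.

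Genes were named by rule: the 12 highest and 12 lowest called genes without overlap, the same among genes with a symbol, up to 6 per list and up to 6 per difference. Members and lists were chosen with earlier results of these data known. Family members outside the rule were named after their values were seen. The 23 gene lists and 5 marker lists hold 557 genes, of which 107 were matched, and the list of plastid gene expression had none.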

Additional observations from a re-analysis of the deposited data

Results flagged for a closer look

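Responses that differed between mbs1-1 and another line are given here with their size, each the mbs1-1 log2 response minus that of the other line. Against wild type, GSTU28 differed by 2.23, AT4G31875 by 1.79, AT4G16400 by 1.39, AT4G25580 by 1.38, UGT84A1 by 1.11, UGT85A4 by 1.04 and UGT78D2 by 0.88. Against wild type, the probe sets without a single gene were probe-255723_at (2.03), probe-264758_at (1.92), probe-258111_at (1.55), probe-255602_at (1.32) and probe-264041_at (1.26). Against 35S:MBS1, probe-258111_at differed by 1.65, AT4G25580 by 1.49 and UGT76C2 by 1.34. Probe-258111_at had 5.44, 5.30 and 5.31 in mbs1-1 at 3 h and 4.57, 4.64 and 4.69 in mbs1-1 at 0 h, against 5.13, 4.91 and 4.87 in wild type at 3 h and 5.60, 5.90 and 5.92 in wild type at 0 h. It was called higher by 0.71 in mbs1-1 and lower by 0.84 in wild type. Its difference to wild type was 1.61 and still called without the 2 brighter arrays (adjusted p = 0.0171). The other 11 were not called there, with adjusted p from 0.0659 to 0.486, while their differences ran from 0.77 to 2.28, in a fit with fewer arrays.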

How the results depend on the processing

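The count for mbs1-1 at 3 h against 0 h stayed within 1.5 times of 10156 under every alternative but one: tests on probe sets with 1 gene gave 5647, and 1925 of at least 1 on the log2 scale, since fewer were tested. Leaving out 1 array gave 9006 to 9777. With the replicate block, which rests on a shared number alone, 10162 probe sets were called. Of 98 called named genes 9 lost the call in at least 1 setting, and none reversed. The difference to wild type (12 calls) gave 4 after centring, 3 with the compared arrays alone, 7 over probe sets with 1 gene, 7 after quantile normalization, 8 with the replicate block and 1 without the 2 brighter arrays. Leaving out 1 array gave 1 to 28: 4, 2 and 3 without mbs1-1 0 h replicates 1, 2 and 3, 2 and 24 without mbs1-1 3 h replicates 1 and 3, 2, 4 and 28 without wild type 0 h replicates 1, 2 and 3, and 1 and 22 without wild type 3 h replicates 2 and 3. The difference to RNAi-MBS2/mbs1-1 (0 calls) gave 1 over probe sets with 1 gene, 2 with the replicate block, and 0 to 4 with 1 array left out, the 4 without its 0 h replicate 3. The difference to 35S:MBS1 (3 calls) gave 101 with the compared arrays alone, 4 with the replicate block, and 2 to 15 with 1 array left out, the 15 without mbs1-1 3 h replicate 3. The causes were not tested. Signal over background was not assessed, since no detection calls were used.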

Other observations

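Among families formed from symbols after the annotation was seen, those not described above are given here beside the 44.6% of all probe sets that were called. Of 6 measured WRKY factors 2 were called higher, and WRKY53, a regulator of leaf senescence, was one of them with a log2 rise of 2.46 ± 0.32 at 3 h. Xyloglucan endotransglucosylases, which remodel the cell wall, were higher in 2 of 9 cases, XTH32 by 2.001 and XTH19 by 1.94. In the aldehyde dehydrogenases 3 of 8 were called higher and 4 lower, all within 1 on the log2 scale. ESCRT and vacuolar sorting genes were called lower in 3 of 10 cases, or 4 after centring, and VPS60.1 fell by 0.69. Calmodulin-like proteins split 2 to 2 among 7, with CML37 at 1.30 and CML41 at -1.73. Aux/IAA repressors also split 2 to 2 among 7, or 1 to 2 after centring and 0 to 2 without the first array at 3 h. RALF-like peptides were higher in 4 and lower in 1 of 11, or 2 and 1 after centring. IQ-domain proteins were higher in 3 and lower in 5 of 15, serine carboxypeptidase-like proteins in 4 and 3 of 29, tetraspanins in 1 and 3 of 15, and tau class glutathione transferases in 2 and 0 of 11.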
